A study of Homo sapiens with 3 samples.

Results

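Mitochondrial ribosomal proteins are the nuclear-encoded proteins of the ribosome that works inside mitochondria. The members described here are the genes whose name in the array files is MRPL or MRPS followed by a number, with or without a letter A, B or C after it. This rule, which uses names only, found 77 of 43317 gene names, measured by 95 of 58201 probes. All 77 members had a signal well above background on all 3 arrays, whereas 22619 genes in all had a probe well above background on at least 1 array.

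HCT116, an established human line from a colorectal carcinoma, was lipofected with siRNAs (short RNAs that direct the breakdown of a matching messenger RNA) directed at SMARCA4. SMARCA4 is an ATPase subunit of the SWI/SNF complexes, which move nucleosomes. The 3 conditions were SMARCA4-KD1, SMARCA4-KD2 and the control called NC, and there was 1 array of each. Sample titles name SMARCA4, but the treatment field of the same records names PRMT1, and the knockdown numbers were taken from it. NC cells received a scrambled siRNA according to the study, and which of the SMARCA4 siRNAs made SMARCA4-KD1 is not given in the sources used here. The experiment used 1 cell line, and no condition had a second array, so no test was run and the spread between replicates is unknown. Both knockdowns were read against the same NC array, so their values are not independent of each other. The knockdowns shared slide 1 while NC was on slide 2, so that slide and knockdown cannot be told apart. Where values are given in pairs below, SMARCA4-KD1 comes first and SMARCA4-KD2 second, and where they are given in threes, NC comes last.

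The mitochondrial ribosome, or mitoribosome, translates the few messenger RNAs made from mitochondrial DNA, all of which encode subunits of the respiratory chain and the ATP synthase. Its ribosomal RNAs come from mitochondrial DNA, but its proteins are translated in the cytosol and imported. Some of them descend from proteins of the bacterial ribosome, and others are found only in mitochondria. The large subunit (MRPL genes, and a few MRPS genes) forms the peptide bond, and the small subunit (MRPS genes) binds and decodes the messenger RNA.

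SMARCA4 itself had a processed signal, the background-corrected intensity of its spot, of 3960, 4129 and 14026. After each array was scaled to its 75th percentile, the knockdowns retained 26.6% and 28.8% of the NC level. PRMT1, the gene named in the treatment field, had log2 fold changes against NC of 0.27 and 0.37. The arrays were close in brightness, with a 75th percentile of 223 to 237 and 45.7% to 47.3% of probes well above background. Of 10 epithelial markers 8 were measured, of which 3 lay above 0 and 5 below in each knockdown. KRT19 had signals of 211695, 217698 and 202585. CLDN4, a tight junction protein, had log2 fold changes of -0.67 and -0.68, past 1.5-fold, and KRT20 had signals of 40.2, 50.8 and 17.5, the last not well above background, whereas VIL1 and LGALS4 were not well above background on any array. Among markers of other cell types, 3 of 5 leukocyte genes, 2 of 3 endothelial genes and 1 of 5 fibroblast genes passed the filter, the last of these being COL1A1 with signals of 348 to 477. In these single arrays, fewer cells of a type and less RNA per cell cannot be told apart.

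The promoters of members at both ends of the response are shown first, since promoter letters are a feature that the rule on names did not use. The sequences are the 120 bases before the transcription start given by RefSeq (GRCh38.p14), 5′ to 3′ on the strand of the gene. MRPL1, MRPL36 and MRPL52 were among the members with the highest signal relative to NC, MRPS7 and MRPS33 were the lowest, and MRPL17 is shown for its repeated NRF1 letters. Capitals mark the letters searched for on both strands: GCGCATGC for NRF1, CCGGAAG for ETS factors such as GABPA, AAGATGGC for YY1 and TATAAA for the TATA box. These are known regulators of nuclear genes for mitochondrial proteins, apart from the TATA box, the classic start element of other promoters. Matches that do not lie wholly within the printed bases are not in capitals. Such are the YY1 letters of MRPS7 and the ETS letters of MRPS33, both after the start. MRPL52 also has ETS letters across the start and NRF1 letters further upstream. MRPS27 and MRPS30 ranked between MRPL36 and MRPL52 by mean log2 fold change but are not shown. Their YY1 letters lie after the start.
MRPL1, chr4:77862710-77862829, plus strand: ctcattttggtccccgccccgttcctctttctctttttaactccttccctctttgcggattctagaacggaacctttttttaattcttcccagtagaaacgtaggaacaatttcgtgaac
MRPL36, chr5:1799838-1799957, minus strand: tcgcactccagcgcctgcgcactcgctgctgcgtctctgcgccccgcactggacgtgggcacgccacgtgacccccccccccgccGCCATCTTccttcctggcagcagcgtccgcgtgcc
MRPL52, chr14:22829767-22829886, plus strand: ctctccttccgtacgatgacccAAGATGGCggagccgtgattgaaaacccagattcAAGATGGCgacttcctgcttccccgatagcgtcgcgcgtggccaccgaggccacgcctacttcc
MRPL17, chr11:6683341-6683460, minus strand: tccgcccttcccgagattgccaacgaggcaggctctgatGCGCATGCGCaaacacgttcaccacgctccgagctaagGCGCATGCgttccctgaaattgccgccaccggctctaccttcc
MRPS7, chr17:75261759-75261878, plus strand: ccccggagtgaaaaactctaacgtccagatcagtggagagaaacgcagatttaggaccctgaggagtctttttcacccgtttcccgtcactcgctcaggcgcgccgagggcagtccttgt
MRPS33, chr7:141014953-141015072, minus strand: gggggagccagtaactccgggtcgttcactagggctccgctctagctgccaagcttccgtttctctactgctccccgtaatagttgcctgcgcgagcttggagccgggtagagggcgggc

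Most members had a higher level in the knockdowns than in NC, by a small amount. The median log2 fold change over the 77 members was 0.33 and 0.31, beside -0.004 and 0.02 over all genes. Above 0 lay 67 and 64 of the 77 members, beside 49.7% and 52.1% of all genes. At the threshold of 1.5-fold, 14 members were higher in SMARCA4-KD1 (18.2%), where 11.2% of all genes were, and 7 in SMARCA4-KD2 (9.09%), where 10.1% of all genes were. The share past the threshold in SMARCA4-KD2 was thus near that of all genes. With the trend of fold change with intensity taken out, a setting chosen after seeing the data, 6 and 4 of the 77 were higher by this much, a smaller share than the 11.2% and 9.63% of all genes. At least 1.5-fold lower were 2 members in SMARCA4-KD1 (2.6%, beside 12.3% of all genes) and 0 in SMARCA4-KD2 (9.74% of all genes). The middle of the members shifted, with few of them far from NC: the quartiles were 0.12 and 0.51 for the first knockdown and 0.08 and 0.44 for the second.

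The members were bright on these arrays, and bright genes as a whole were higher in the knockdowns. By mean signal 72 of the 77 members fell in the brightest quartile group of all genes and the other 5 in the group next to it. The 5583 other genes of the brightest group had medians of 0.10 and 0.10, and 60.4% and 62.0% of them lay above 0. The member medians therefore lay above those of equally bright genes, but by less than they lay above those of all genes. By at least 1.5-fold, 365 and 284 of these 5583 genes were lower and 594 and 488 higher. The share lower was thus smaller among bright genes than the 12.3% and 9.74% of all genes. Among the 4730 other genes within the middle 90% of the members' ranges of signal and probe GC content, the medians were 0.11 and 0.10. Within the 77 members, the fold change had a Pearson correlation with signal of -0.08 and -0.06, given as a description over probes of the same arrays.

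**Figure D1:**
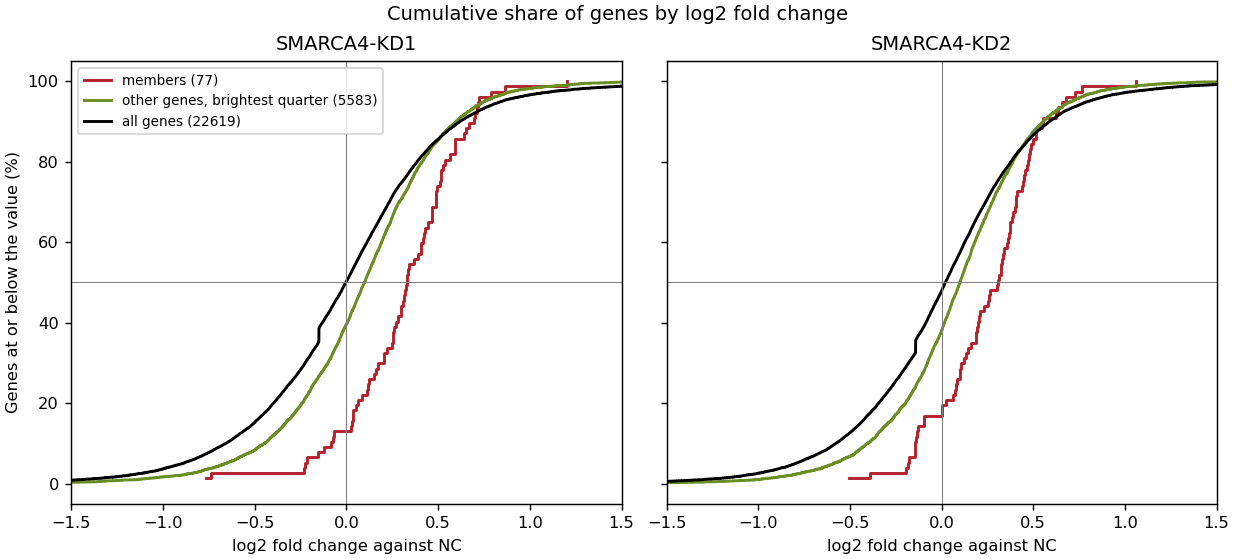
Share of genes (vertical axis, in percent) at or below each log2 fold change against NC (horizontal axis) for the 77 members, the 5583 other genes of the brightest quartile group and all 22619 genes, with 1 panel per knockdown. The member curve lies to the right of both others around 50%, which it crosses at 0.33 (first panel) and 0.31 (second panel), and the step in the curve of all genes below 0 comes from dim values, all raised to 1 common level per array.

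Of the large subunit, 46 and 45 of 50 members lay above 0, with medians of 0.40 and 0.36. For the small subunit these counts were 21 and 19 of 26, with medians of 0.26 and 0.20. The difference between the subunits had no test, and their ranges overlapped: -0.23 to 1.20 against -0.76 to 0.79 in SMARCA4-KD1. Members with a bacterial homologue (48) had medians of 0.33 and 0.31, and those found only in mitochondria (28) had the same medians of 0.33 and 0.31. The remaining member, MRPS36, is now known as a component of the oxoglutarate dehydrogenase complex rather than of the ribosome, and had log2 fold changes of -0.12 and -0.13.

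MRPL1, which forms the mobile L1 stalk where spent transfer RNA leaves, had signals of 1580, 1382 and 648. It was the member furthest above NC, by 2.30-fold and 2.09-fold (log2 fold changes of 1.20 and 1.06). The extraction software put the error of each such log2 difference at 0.20 for all 77 members, and repeated spots of 1 probe had a median SD of 0.03 to 0.04 (log2) within an array. Neither figure covers the spread between cultures.

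MRPL36, a homologue of bacterial L36, had signals of 8563, 7253 and 4433. The log2 fold changes were 0.86 and 0.68. MRPL52, found only in mitochondria, had signals of 11369, 10666 and 6624, and log2 fold changes of 0.69 and 0.65. MRPS30, a large subunit protein despite its name, had signals of 4459, 4339 and 2567. For it the log2 fold changes were 0.71 and 0.73, so that both knockdown arrays lay closer to each other than to NC. MRPL24, a protein near the exit of the peptide tunnel, had signals of 13796, 13589 and 8625, with log2 fold changes of 0.59 and 0.62. These 5 genes, MRPL1 included, were past 1.5-fold in SMARCA4-KD1 and so were MRPL40, MRPL14, MRPL21 and MRPL2, which is a protein of the peptidyl transferase centre (0.64 and 0.37). In SMARCA4-KD2 the 6 large subunit members past the threshold were the same 5 and MRPL35, at 0.64.

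In the small subunit, MRPS27, a pentatricopeptide repeat protein that binds RNA, had signals of 11198, 11112 and 6386. Its log2 fold changes were 0.72 and 0.77, the highest of the small subunit by their mean. MRPS17, a homologue of bacterial S17, had signals of 13694, 10714 and 7465 and log2 fold changes of 0.79 and 0.49. MRPS12, a protein of the decoding centre, had signals of 9202, 7966 and 5333 and log2 fold changes of 0.70 and 0.55. For these genes the NC array was the lowest of the 3, as it was for MRPS23 (8272, 6715 and 4732), which is found only in mitochondria, and MRPS10 (11537, 9981 and 6844). Their log2 fold changes were 0.72 and 0.47 for MRPS23, and 0.67 and 0.51 for MRPS10.

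**Figure D2:**
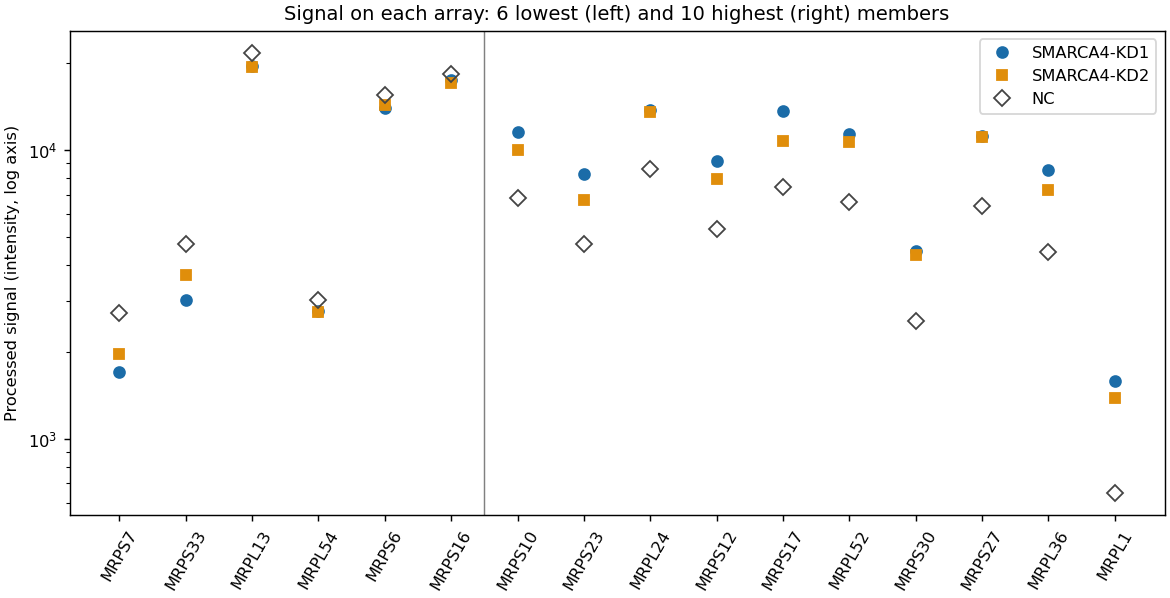
Processed signal (vertical log axis) on each of the 3 arrays for the 6 members with the lowest (left of the line) and the 10 with the highest (right) mean log2 fold change. For the 10 genes on the right the NC diamond lies below both knockdown points, furthest for MRPL1 (1580 and 1382 against 648), and for the 6 on the left it lies above both. The height of 1 gene's points is not comparable with another's, since probes differ.

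MRPS7 and MRPS33 stood apart at the low end. MRPS7, which lies in the head of the small subunit near the transfer RNA exit site, had signals of 1706, 1964 and 2729. It had log2 fold changes of -0.76 and -0.51. MRPS33, a small protein found only in mitochondria, had signals of 3013, 3700 and 4744 and log2 fold changes of -0.74 and -0.39. Both were past 1.5-fold in SMARCA4-KD1 and short of it in SMARCA4-KD2, and both are read by a probe that crosses an exon junction, as 10 of the 95 member probes do. Other such probes lay on either side of NC, with MRPL54 below it and MRPS23 (0.72 and 0.47), MRPL40 (0.65 and 0.46) and MRPL21 (0.59 and 0.44) above. Whether such probes read lower was not tested. After MRPS7 and MRPS33 the next lowest by mean was MRPL13, at -0.23 and -0.19, close to the software's error, followed by MRPL54 (-0.22 and -0.18), MRPS6 (-0.23 and -0.15), MRPS16 (-0.15 and -0.15), MRPS36 (-0.12 and -0.13), MRPS31 (-0.07 and -0.14), MRPL16 (-0.07 and -0.13) and MRPL51 (-0.09 and 0.03).

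Members with well-known roles lay mostly between these ends. MRPL12 and MRPL10 belong to the stalk that recruits translation factors, and had log2 fold changes of 0.52 and 0.46 (MRPL12) and of 0.54 and 0.55 (MRPL10). MRPL11, at the base of that stalk, had 0.11 and 0.10. The stalk proteins thus did not share 1 value. MRPL45, which lies by the tunnel exit at the inner membrane, had 0.52 and 0.48. For MRPL23, another protein of the exit, the values were 0.17 and 0.12, and for MRPL4, whose bacterial homologue lines the tunnel, they were 0.09 and 0.26. MRPL44, which carries a domain related to ribonuclease III, had 0.12 and 0.10. MRPL3, mutated in a mitochondrial cardiomyopathy, had 0.42 and 0.36, and MRPL41, found only in mitochondria, had 0.32 and 0.31. In the small subunit, MRPS5 had 0.30 and 0.32 and MRPS2 had 0.12 and 0.07, both homologues of bacterial proteins. The MRPS18 paralogues are related to the same bacterial protein but MRPS18A sits in the large subunit; MRPS18A had 0.49 and 0.36, MRPS18B 0.27 and 0.21, and MRPS18C 0.32 and 0.20.

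Between the 2 knockdowns, a comparison that does not use the NC array, 1 member was at least 1.5-fold higher in SMARCA4-KD1 than in SMARCA4-KD2 (1.3%, beside 3.04% of all genes) and 0 were lower (3.55% of all genes). This was MRPL38, found only in mitochondria, with signals of 2137, 1355 and 1507. The shares of all genes came mostly from dim genes. Of 5655 other genes in the dimmest quartile group, 548 were higher and 628 lower by this much. Of the 5583 other genes in the brightest group, where most members lie, 6 were higher and 20 lower. The difference in log2 fold change, SMARCA4-KD1 minus SMARCA4-KD2, was 0.60 for MRPL38 and 0.38 for MRPS28. Over the 77 members this difference had an SD of 0.14, beside 0.43 for all genes and 0.16 for the other genes of the brightest group. Knockdown arrays thus lay about as close to each other for members as for other bright genes.

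Several members had more than 1 probe, which gives a reading of the same transcript, or of another transcript of the gene, on the same arrays. In 16 members 2 or more probes were well above background on all arrays. The distance between the highest and lowest log2 fold change of a gene's probes had medians of 0.13 and 0.15. The 17 probes that did not stand for their gene had medians of 0.34 and 0.27, with 14 and 12 above 0. These probes did not enter the member medians, but they are read from the same RNA and arrays.

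For MRPL46, MRPL32 and MRPS5 the probes lay close together: those of MRPL46 gave 0.51 and 0.52 in SMARCA4-KD1 and 0.48 and 0.51 in SMARCA4-KD2. The probes of MRPL32 share 25 of their 60 bases. Those of MRPL53 gave 0.49 and 0.53 in SMARCA4-KD1 and 0.50 and 0.36 in SMARCA4-KD2. Both probes of MRPL52 were above NC, the brighter by 0.69 and 0.65 and the other (2145, 1705 and 969) by 1.06 and 0.78. Probes of MRPL12 gave 0.52 and 0.72 in SMARCA4-KD1, although the probes share 48 of their 60 bases. Those of MRPL37, MRPL45, MRPS18B and MRPS18C all lay above 0, and those of MRPS36 below. The 3 probes of MRPL19 lay between 0.02 and 0.16 in SMARCA4-KD1 and between -0.09 and -0.03 in SMARCA4-KD2.

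In MRPL43, MRPL9 and MRPS16 the probes differed in sign in each knockdown, and in MRPL38 they did in SMARCA4-KD2 (-0.19 and 0.30). The probes of MRPL43 are shown by their first 30 of 60 bases, 5′ to 3′ (positions in hg19, minus strand), since they are placed on different transcript records of the gene and gave the widest gap.
MRPL43, brighter probe, chr10:102746878-102746907: ggggtcgtaatatatgtaaactcgcgtccg
MRPL43, dimmer probe, chr10:102738274-102738303: ggctgtgtagaggcctccatctggcgtggg
The brighter probe had signals of 5865, 5320 and 4556, and log2 fold changes of 0.28 and 0.19. The dimmer probe had signals of 23.9, 18.7 and 26.1, close to background, and log2 fold changes of -0.21 and -0.51. For MRPL9 the brighter probe gave 0.30 and 0.38 and the other -0.07 and -0.13, and for MRPS16 the brighter gave -0.15 and -0.15 and the other 0.23 and 0.10. The second probe of MRPS27 was not well above background on any array and gives no reading.

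Of the 77 members, 69 had a promoter of 300 bases in the RefSeq table, from 250 before to 50 after the start. The YY1 letters were found in 20 of the 69 (29.0%), beside 3.91% of the promoters of 15843 protein-coding genes. For the ETS letters the share was 40.6% (28 promoters) against 14.2%, and for the NRF1 letters 8.70% (6) against 4.26%. The TATA letters were in 4.35% of member promoters (those of MRPL54, MRPS15 and MRPS36, 3 in all) and in 9.63% of all. Both ETS and YY1 letters stood in 8 member promoters, in none of them sharing bases, and neither in 29. In MRPL17 the NRF1 letters overlap with themselves, read on either strand. A match is a description of the letters and not evidence of binding.

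In all 6 members with NRF1 letters these lay before the start, and the log2 fold changes ran from 0.27 to 0.69 in the first knockdown and from 0.20 to 0.65 in the second. Members with the YY1 letters had medians of 0.50 and 0.41, and the 49 without had 0.30 and 0.23. Their ranges overlapped widely, since the 20 included MRPL36 (0.86 and 0.68) and MRPS7 (-0.76 and -0.51). In 5 of the 20 the YY1 letters lay before the start, as in MRPL36 and at both places printed for MRPL52, and in 15 after it, as in MRPS7. Members with the ETS letters had medians of 0.32 and 0.22, and the 41 without had 0.33 and 0.32. MRPL1, furthest above NC, had none of the 4 motifs in its 300 bases.

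A start on the opposite strand, up to 1000 bases upstream and pointing away, was found for 18 of the 69 members (26.1%), beside 11.0% of all promoters. The search also took opposite-strand starts less than 250 bases downstream, so the 11.0% may include some of these. The partners of the members all lay upstream, by 45 to 990 bases. Members with such a divergent partner had medians of 0.34 and 0.27, and those without had 0.31 and 0.31. MRPL46 and MRPS11 face away from each other with 320 bases between their starts. MRPL46 had 0.51 and 0.48 and MRPS11 0.21 and 0.19. MRPS12 is paired in the same way with SARS2, which encodes the seryl-tRNA synthetase of mitochondria (0.31 and 0.29). The 16 partners that are not members had medians of 0.18 and 0.22, and 10 of them lay above 0 in each. For MRPL27 (0.31 and 0.23) the partner EME1, a subunit of a DNA endonuclease, had -0.70 and -0.82.

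The other genes of mitochondrial gene expression were read from lists written for this comparison. Beside their counts past 1.5-fold, 11.2% of all genes were higher and 12.3% lower in SMARCA4-KD1. In SMARCA4-KD2 the shares of all genes were 10.1% and 9.74%. Subunits of the mitoribosome whose names follow another pattern had medians of 0.31 and 0.22, and 5 of 6 lay above 0 in each knockdown. ICT1, the peptidyl-tRNA hydrolase built into the large subunit, had signals of 32365, 29648 and 17819, with log2 fold changes of 0.78 and 0.70. It was the only one of the 6 past 1.5-fold. CHCHD1 had 0.49 and 0.38, PTCD3, a pentatricopeptide repeat protein, 0.33 and 0.21, the GTP-binding DAP3 0.30 and 0.23, and AURKAIP1 0.18 and 0.19. GADD45GIP1, which sits by the tunnel exit, had -0.56 and -0.31.

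Factors of mitoribosome assembly and ribosomal RNA modification (28) had medians of 0.18 and 0.19, with 6 higher and 1 lower by 1.5-fold in SMARCA4-KD1 and 6 higher and 0 lower in SMARCA4-KD2. MTG1, a GTPase of large subunit assembly, had 1.23 and 1.09, but from dim signals of 79.2, 69.0 and 31.8. The RNA helicase DDX28 (4769, 4304 and 2187) had 1.04 and 0.94, and the pseudouridine synthase RPUSD4 had 0.99 and 0.93. Mitochondrial translation factors (15) had medians of 0.34 and 0.35 but spread in both directions, with 2 higher and 2 lower by 1.5-fold in each knockdown. These counts were near the shares of all genes. The elongation factor TSFM had signals of 3950, 3645 and 7995 and log2 fold changes of -1.10 and -1.17, and the initiation factor MTIF3 had -0.68 and -0.59. GUF1, a GTPase that acts on stalled mitoribosomes, had 1.28 and 1.15, and LRPPRC, which stabilises mitochondrial messenger RNA, had 0.71 and 0.77.

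Mitochondrial aminoacyl-tRNA synthetases (17) had medians of 0.11 and 0.22, with 2 higher (MARS2 at 1.09 and 1.08, YARS2 at 0.62 and 0.62) and 0 lower by 1.5-fold in each knockdown. The 2 higher of 17 were near the share of all genes (11.2% and 10.1%). MARS2 was dim, with signals of 61.9, 59.1 and 27.4, against 3037, 2941 and 1865 for YARS2. Genes of mitochondrial DNA transcription, replication and RNA processing (17) had medians of 0.32 and 0.27, with 3 higher in each knockdown. These were the helicase gene TWNK, named C10orf2 on the array (0.97 and 0.99), the RNA polymerase POLRMT (0.71 and 0.64) and the transcription factor TFB2M (0.73 and 0.62), and 1 gene of this list was 1.5-fold lower in SMARCA4-KD1. Nuclear genes of the respiratory chain and ATP synthase (76) had medians of 0.16 in each knockdown. Above 0 lay 65 and 62 of them (85.5% and 81.6%), near the shares of the members (87.0% and 83.1%). At least 1.5-fold higher were 4 and 2 of the 76, a smaller share than the 11.2% and 10.1% of all genes. Among them was SDHB, a subunit of succinate dehydrogenase (0.69 and 0.68). By contrast, the 11 measured transcripts of mitochondrial DNA had medians of 0.007 and -0.08, and 6 and 4 of them lay above 0. Past 1.5-fold was 1 of them in SMARCA4-KD1, MT-ND1, a subunit of respiratory complex I, with signals of 12139, 7581 and 5154 and log2 fold changes of 1.15 and 0.52, and 0 were in SMARCA4-KD2. The probe named for MT-CO1 is placed on chromosome 1 by the array files, so it may not read the mitochondrial gene. It was kept among the 11 in these medians and counts, and its value in SMARCA4-KD1 is itself the median of 0.007.

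Cytosolic ribosomal proteins, the counterparts of the members in the other ribosome of the cell, had medians of 0.04 and 0.12 over 85 genes. The quartiles were -0.10 and 0.11 in SMARCA4-KD1 and -0.01 and 0.20 in SMARCA4-KD2. Above 0 lay 50 and 63 of the 85 (58.8% and 74.1%), beside 49.7% and 52.1% of all genes. RPL10L (-2.42 and -2.78) and RPL26L1 (1.27 and 1.12), which have near-identical relatives, are uncertain, since their probes may read more than 1 locus. RPL27A had 0.86 and 0.70, but its signals of 269, 232 and 139 were far below those of most of this list. For RPL27 they were 148815, 151711 and 127974, so the reading of RPL27A is uncertain too.

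Of the 9 transcription regulators on the list, 8 were measured. NRF1, the factor behind the NRF1 letters, had signals of 219, 183 and 170 and log2 fold changes of 0.28 and 0.07. For the ETS factor GABPA the signals were 841, 855 and 1107 and the log2 fold changes -0.48 and -0.40, whereas for its partner GABPB1 they were 844, 796 and 501 with 0.67 and 0.64. The GABP subunits thus lay on opposite sides of NC. YY1 had 0.20 and 0.19, ESRRA, an orphan nuclear receptor, 0.35 and 0.32, and the coactivators PPRC1 and PPARGC1B 0.70 and 0.58 and 0.02 and -0.04. MYC, which is known to act on many genes of ribosome formation, had signals of 39942, 33563 and 22002 and log2 fold changes of 0.77 and 0.58. PPARGC1A was not well above background on any array. The part of these regulators in the levels of the members was not tested.

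The level of the members against NC depends on what the arrays are scaled to. The 8 spike-in probes well above background, which read RNA added in known amounts, were lower in the knockdowns than in NC after scaling, with mean log2 differences of -0.30 (SD 0.09) and -0.32 (SD 0.10). Scaled to these probes instead, all genes had medians of 0.30 and 0.34 and the members 0.63 and 0.62, and 75 of 77 members lay above 0 in each knockdown; 26.3% of all genes were then at least 1.5-fold higher in SMARCA4-KD1 and 5.09% lower. This scaling adds the same amount to every gene of an array and so leaves the distance from members to all genes as it was, 0.33 and 0.29. With the trend of fold change with intensity taken out, the member medians were 0.21 and 0.18, with 59 and 55 of 77 above 0, and the distance to all genes was 0.22 and 0.18. With quantile normalization the distance was 0.24 and 0.22. The part of array brightness in the result was not tested further.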

How the data were processed

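RNA of 3 conditions was hybridised to Agilent 1-colour (Cy3) arrays with 60-base probes. Per the labels, the authors extracted spot intensity with Agilent Feature Extraction 10.7.1.1; the deposited signals are background-corrected but not normalized between arrays. A deposited series-level intensity table, in the same unit, served as an alternative; it equalled the scanner signals within 0.1% for all 91 member probes with 1 spot.

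Outlier spots were left out, repeated spots averaged, and log2 signals taken relative to each array's 75th percentile. A value not well above background was raised to the lowest value well above background of its array. The filter required a probe to be well above background on 1 array or more, and each gene name was represented by its brightest probe; coordinates of probes are hg19, as in the file headers. Each knockdown was read against NC at 1.5-fold, the threshold of the methods, with no test. Member probes had 1 spot, apart from 4 with repeated spots. Intensities are printed before scaling and fold changes after it.

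Named members were the 10 lowest and 10 highest by mean log2 fold change, those with several probes, and those of known role; in each list up to 3 at either end that passed the threshold in each knockdown were named, and all subunits named otherwise and all regulators. Other names were chosen after their values were seen: MRPL14, MRPL21, MRPL35, MRPL40, MRPS15, the markers CLDN4 and KRT20, MT-ND1, MT-CO1, MRPS28, and the genes of divergent pairs. The promoters printed, that of MRPL17 included, were also chosen after the values were seen. The members and lists were chosen with earlier results of these data known. Alternatives were quantile normalization, normexp (offset 50), the percentile over probes well above background, spike-in scaling, other filters, no floor, the mean over probes, single probes, the series-level table and 2-fold; 2 more were added after seeing the data. The steps were tested on simulated data. Tools were R 4.3.3, limma 3.58.1 (normexp), Python 3.11.15, numpy 2.4.6, pandas 2.3.3, statsmodels 0.14.6 and matplotlib 3.10.9. The siRNA sequences and 1 gene that the naming rule covers are not reported here.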

Additional observations from a re-analysis of the deposited data

How the results depend on the processing

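The member medians stayed above 0 under every alternative run, and MRPS7 and MRPS33 stayed below NC by their mean. The medians in SMARCA4-KD1 and SMARCA4-KD2 were 0.22 and 0.20 with quantile normalization and 0.63 and 0.62 with spike-in scaling; with the percentile over probes well above background the median in SMARCA4-KD1 was 0.27. Of alternatives chosen after seeing the data, taking out the trend with intensity gave 0.21 and 0.18, and centring on the brightest quartile group of genes gave 0.23 and 0.20. The count at least 1.5-fold higher in SMARCA4-KD1, 14, became 9 with quantile normalization, 45 with spike-in scaling, 6 without the trend and 8 with centring, and the count of 7 in SMARCA4-KD2 became 40, 4 and 3 with the last 3 of these. The shares of all genes in the same settings were 10.2%, 26.3%, 11.2% and 8.19% for SMARCA4-KD1 and, for the last 3, 27.6%, 9.63% and 7.14% for SMARCA4-KD2, so that without the trend the share of members in SMARCA4-KD1 lay below that of all genes, not above it. The count lower in SMARCA4-KD1 became 0 with spike-in scaling, and that in SMARCA4-KD2 became 1 with centring. The 1 member apart between the knockdowns, MRPL38, became 0 with normexp and with the mean over probes. At 2-fold, 1 member was higher in each knockdown (MRPL1), 0 were lower and 0 were apart. The share of all genes at 2-fold was not counted, so whether these counts differ from it is not known. Averaging probes moved MRPL43 to a mean of -0.06 and MRPL9 to 0.12. The cause of these shifts was not tested, apart from what each alternative changes by its construction. No paired analysis was possible because each condition had 1 array. With 1 array each, the number of arrays limits the precision, and no setting gives the spread between cultures.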
